A study of Mus musculus with 57 samples.

Results

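The 10 genes described here, *Cpt1a*, *Cpt1b*, *Cpt2*, *Slc25a20*, *Acadm*, *Acadl*, *Acadvl*, *Hadha*, *Hadhb* and *Acaa2*, encode proteins that carry long-chain fatty acids into mitochondria and break them down there. They were chosen by name, and all 10 were found among the 56860 genes of the deposited tables. The data are bulk RNA-seq of polyA-selected RNA in 57 libraries of mouse embryo tissue from lines on a 129/Sv genetic background, with wild-type (wt) embryos set against *Hoxa5*-/- embryos, which carry the null allele *Hoxa5*tm1Rob, a *neomycin* cassette that stays in the homeobox. The study asked how the loss of this *Hox* transcription factor changes gene expression across tissues and stages. Each genotype had 4 libraries of trachea, lung and diaphragm of E15.5 embryos (E, embryonic day), of lung of E12.5 embryos and of somites (cervical to upper thoracic trunk segments) of the same age. For the younger somites, of E10.5, 4 wt libraries were set against 3 mutant ones. The brown fat between the shoulder blades (iBAT) of E18.5 fetuses had 5 libraries of each genotype. The cassette leaves exon reads of *Hoxa5* countable, and the mutation is present in all cells of the embryo.

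A long-chain fatty acid is first joined to coenzyme A and then passed to carnitine by a carnitine palmitoyltransferase of the outer mitochondrial membrane, which is the gate of the pathway and is inhibited by malonyl-CoA. *Cpt1a* encodes the form best known from liver and *Cpt1b* the form best known from muscle and brown fat. The acylcarnitine crosses the inner membrane through the carrier encoded by *Slc25a20*, and *Cpt2* encodes the enzyme that hands the acyl group back to coenzyme A. In the matrix, each turn of β-oxidation starts with an acyl-CoA dehydrogenase chosen by chain length (very long for *Acadvl*, long for *Acadl*, medium for *Acadm*). The later steps belong to the trifunctional protein of the *Hadha* and *Hadhb* subunits and to enzymes such as the thiolase encoded by *Acaa2*. A thiolase acts in the last step. Brown fat is known for burning fatty acids to make heat, and heart and oxidative muscle for using them as fuel.

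Total counts per library ran from 18369905 to 72991481 reads. *Hoxa5* was lower in *Hoxa5*-/- libraries in all 7 contexts (a context is 1 tissue at 1 stage), with no overlap of TPM between genotypes. TPM is the read count of a gene divided by its exon length and scaled to a fixed sum in each library. The 32 libraries of trachea, lung and diaphragm had single-end reads, and the 25 libraries of somites and iBAT had paired-end reads from another sequencing centre, so levels set side by side across these sets cannot be told apart from differences between centres, and tests were made within a set. The labelled tissues held their defining markers. The sum of 10 brown fat markers lay between 14873 and 21219 TPM in iBAT and at no more than 155 TPM in any other library, and that of 12 skeletal muscle markers lay between 18446 and 46547 TPM in diaphragm. Some dissections held other tissue. Hepatocyte markers (12 genes) exceeded 10000 TPM in wt replicate 3 and *Hoxa5*-/- replicates 3 and 4 of diaphragm, against 423 to 2480 TPM in the other 5 diaphragm libraries. Cardiac markers (12 genes) reached 1877 to 6822 TPM in trachea. In bulk samples, fewer cells of a type and less RNA per cell cannot be told apart.

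Some members share exons with neighbours, which limits their counts. *Cpt1b* (chromosome 15, 89300608 to 89310066, minus strand, GRCm39) shares 2744 of its 3372 exon bases with *Gm44502*, a readthrough gene on the same strand that had 0 counts in every library, so that only 628 bases are its own. *Acadvl* (chromosome 11) shares 1151 of 2686 exon bases with *Dvl2* on the opposite strand, and *Hadha* shares 75 of 8730. The 7 other members share none. Reads that fall on 2 genes are dropped by the default of the counting tool, and the setting used is not given in the sources used here. Levels of *Cpt1b* and *Acadvl* are therefore set against other genes with this limit, whereas the same gene can be compared between libraries of a set.

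The 10 genes together made up 1.43% ± 0.107 (SD, n = 5) of all TPM in wt iBAT, with 14336 ± 1074 TPM, and no more than 881 ± 58.0 TPM (SD, n = 4, wt trachea) in any other wt context. The sum was lowest in wt somites at E10.5, at 396 ± 5.42 TPM, and lay at 437 ± 14.3 in lung at E12.5, 544 ± 11.2 in somites at E12.5 and 764 ± 85.5 TPM in diaphragm (SD, n = 4 each), with a mean of 729 TPM in lung at E15.5. In that order, diaphragm (671 to 869 TPM) overlapped both lung at E15.5 (686 to 815) and trachea (836 to 961), while the wt libraries of lung at E12.5 and of both somite stages overlapped with none of their neighbours. This order crosses the centres. In deposited TPM, *Acaa2* was the most abundant member in all 7 wt contexts and *Cpt1b* the least abundant. Divided by its unshared bases, mean *Cpt1b* came to 46.2 TPM in wt iBAT and 3.20 TPM in wt somites at E10.5. There it lay above *Cpt1a* (9.40 and 2.68 TPM), so the last place of *Cpt1b* depends on the measure. In wt iBAT, *Acaa2* held rank 13 of the 56860 genes by mean TPM and *Acadl* rank 37, while *Cpt1a* held rank 7689.

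**Figure D1:**
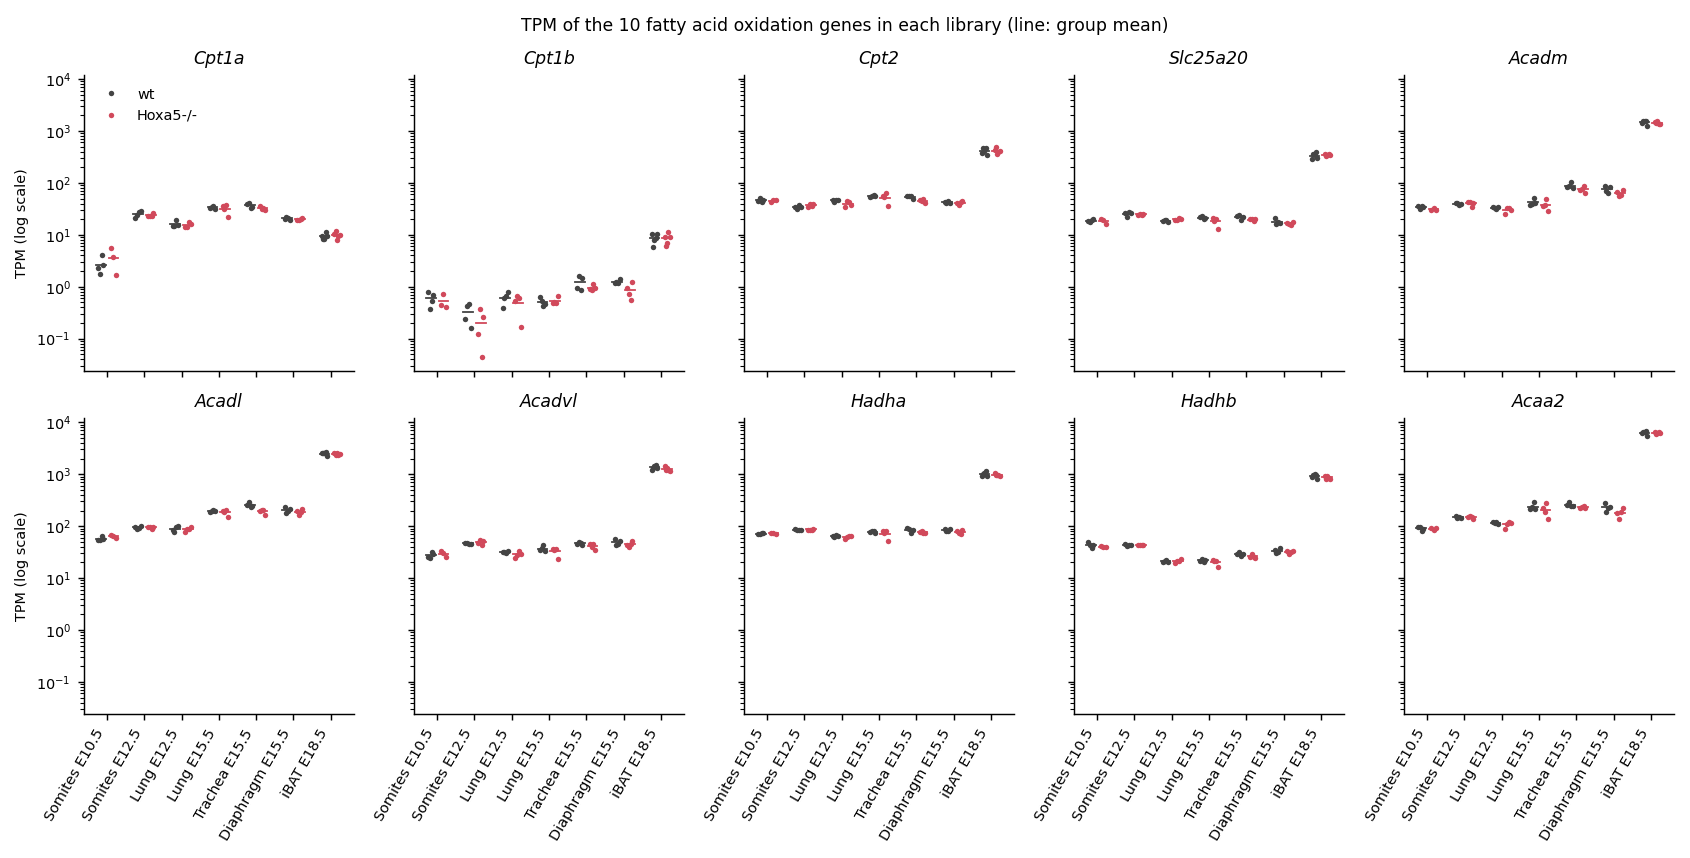
TPM on a log axis of each of the 10 genes in each of the 57 libraries, by context, with wt in grey and Hoxa5-/- in red and a line at the group mean. For 9 genes all iBAT libraries lie above all other libraries, whereas Cpt1a in iBAT (8.10 to 11.8 TPM) lies below every library of 5 other contexts and above those of somites at E10.5.

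*Cpt1a*, at the gate of the pathway, followed another pattern than the other 9 members. Its TPM was 2.34, 1.74, 4.08 and 2.57 in the 4 wt libraries of E10.5 somites and 21.1, 23.8, 27.9 and 28.3 in those of E12.5. It was 14.6, 14.7, 19.1 and 15.7 in wt lung at E12.5 and 33.0, 34.1, 36.3 and 31.6 at E15.5. The later stage lay above the earlier one in every library of both tissues. In wt trachea it was 38.7, 40.5, 32.8 and 34.8 TPM, in wt diaphragm 20.5, 21.9, 21.3 and 19.1, and in wt iBAT 9.51, 8.46, 8.16, 11.3 and 9.61. Mean *Cpt1a* in iBAT was thus 0.256 times that of trachea, the highest context, while for the other 9 members the mean in iBAT was 6.89 (*Cpt1b*) to 27.4 times (*Acadvl*) that of the next highest context. These ratios to trachea, lung and diaphragm cross the centres.

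The bases before the start of *Cpt1a* are shown because this member moved apart from the others, and those of *Acadm* because it is one of the 2 members, with *Cpt1b*, that were called between wt trachea and lung. Both are the 250 bases before the start that RefSeq gives (GRCm38.p6), which need not be the outermost start of the annotation used for counting. Capitals mark the GC box GGGCGG and the nuclear receptor half-site AGGTCA, on either strand.
Cpt1a (chr19:3323051-3323300, plus strand): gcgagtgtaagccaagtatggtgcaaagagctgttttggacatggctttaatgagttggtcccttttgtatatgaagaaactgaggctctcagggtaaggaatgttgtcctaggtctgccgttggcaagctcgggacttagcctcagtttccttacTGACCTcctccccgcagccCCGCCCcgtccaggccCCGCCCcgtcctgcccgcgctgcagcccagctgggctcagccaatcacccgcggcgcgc
Acadm (chr3:153944644-153944893, minus strand): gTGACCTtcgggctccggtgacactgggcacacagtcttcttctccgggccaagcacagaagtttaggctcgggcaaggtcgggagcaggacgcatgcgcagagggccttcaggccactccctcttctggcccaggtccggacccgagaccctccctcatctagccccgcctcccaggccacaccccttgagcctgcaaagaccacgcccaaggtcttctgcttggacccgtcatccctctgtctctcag
The *Cpt1a* window holds 2 GC boxes and 1 half-site, all on the minus strand of the letters shown, and that of *Acadm* holds 1 half-site. Promoter windows of 300 bases, which add 50 bases after the start, were used for 8 of the 10 members. *Cpt1b* and *Acaa2* were left out of the counts of members that follow. A GC box was in 6 of the 8 members used, against 35.7% of all 32851 RefSeq promoters, and a half-site in 3 of 8, against 16.3%. The windows of *Hadha* and *Hadhb* overlap, and the GC box of *Hadha* is the same stretch of DNA as a box of *Hadhb*. These promoters are therefore not independent in the count. The longer forms TCAAGGTCA and AGGTCANAGGTCA, both of which contain the half-site, were in 0 of 8, against 0.423% and 0.0396% of all promoters, and CCAAT was in 1 of 8, that of *Cpt1a*, against 37.4%.

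*Cpt1b*, the other gate enzyme, was counted with few reads outside iBAT, between 1 and 51 per library, and with 160 to 356 in iBAT. Its TPM was 10.2, 5.80, 7.78, 8.69 and 10.52 in wt iBAT, 1.19, 1.23, 1.19 and 1.38 in wt diaphragm, and 0.953, 1.62, 0.873 and 1.49 in wt trachea. In wt lung it was no higher than 0.779 TPM at E12.5 and 0.624 at E15.5, and in wt somites no higher than 0.783 at E10.5 and 0.462 at E12.5. In deposited TPM, *Cpt1b* made up 47.4% ± 5.11 (SD, n = 5) of the sum of *Cpt1a* and *Cpt1b* in wt iBAT and 5.70% ± 0.698 (SD, n = 4) in wt diaphragm. Divided by the 628 bases that *Cpt1b* shares with no gene, the same counts gave 82.7% ± 2.99 (SD, n = 5) in wt iBAT and 24.5% ± 2.35 (SD, n = 4) in wt diaphragm. The share in wt somites at E10.5 was 18.9% ± 5.85 in TPM and 54.5% ± 10.1 per unshared base (SD, n = 4), with 10 to 21 reads of *Cpt1b* behind each value. By either measure it was lowest in wt somites at E12.5 (1.27% ± 0.553 and 6.42% ± 2.69, SD, n = 4). The true share depends on how many reads on shared bases were dropped, which the tables do not show.

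**Figure D2:**
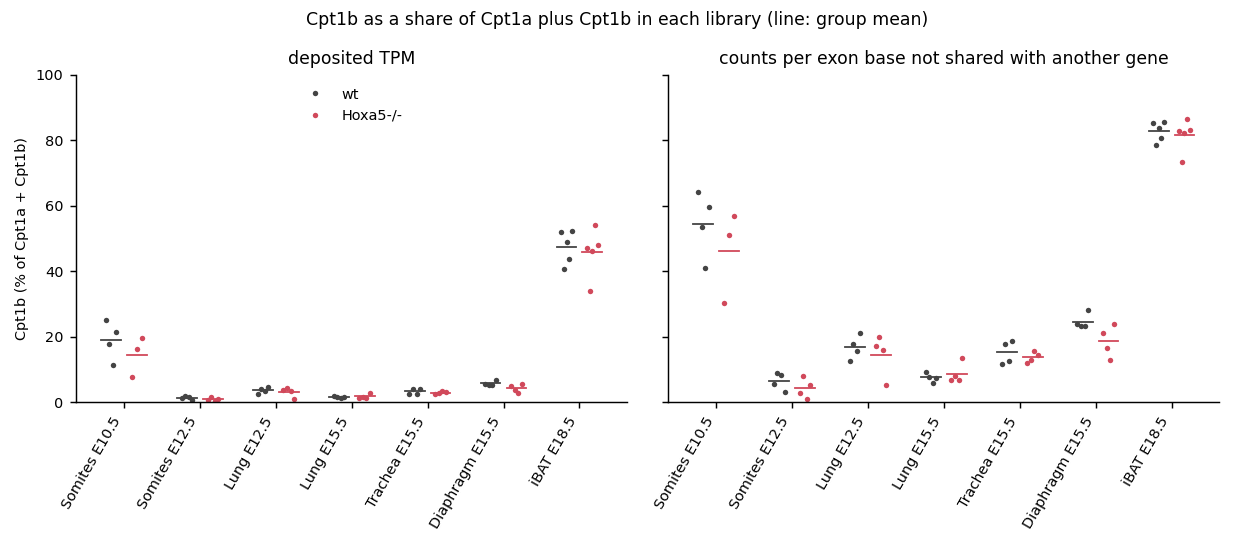
Cpt1b as a percentage of Cpt1a plus Cpt1b in each library, from deposited TPM on the left and from counts per exon base shared with no other gene on the right, by context and genotype with a line at the group mean. The wt iBAT libraries lie between 40.7% and 52.2% on the left and between 78.6% and 85.5% on the right.

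The carrier gene *Slc25a20* and *Cpt2*, which act at the inner membrane, varied little outside iBAT. Mean *Slc25a20* in the 6 other wt contexts ran from 17.8 ± 1.99 TPM in diaphragm to 25.4 ± 2.12 TPM in somites at E12.5 (SD, n = 4 each), a ratio of 1.43. In iBAT it was 334 ± 42.7 TPM in wt and 345 ± 14.3 TPM in *Hoxa5*-/- libraries (SD, n = 5). Mean *Cpt2* ran from 34.5 ± 2.34 TPM in wt somites at E12.5 to 56.1 ± 1.58 TPM in wt lung at E15.5 (SD, n = 4) and was 411 ± 54.0 TPM in wt iBAT (SD, n = 5). *Cpt2* went from 44.3, 51.1, 42.5 and 46.9 TPM in wt somites at E10.5 to 34.6, 31.3, 36.9 and 35.1 at E12.5, so that the later stage was lower in every library while *Cpt1a* was higher. The ratio of *Cpt1a* to *Cpt2* TPM in wt libraries went from 0.0594 ± 0.0261 to 0.733 ± 0.0844 between these stages (SD, n = 4) and was 0.0231 ± 0.00394 in iBAT (SD, n = 5).

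Among the acyl-CoA dehydrogenase genes, *Acadl* exceeded *Acadm* in TPM in every library, to a degree that differed between contexts. The ratio of *Acadl* to *Acadm* in wt libraries was 1.68 ± 0.137 in somites at E10.5, 2.38 ± 0.189 in somites at E12.5, 2.68 ± 0.344 in lung at E12.5 and 4.76 ± 0.426 in lung at E15.5 (SD, n = 4), and 1.72 ± 0.0920 in iBAT (SD, n = 5). *Acadl* had 85.0, 78.5, 95.5 and 99.4 TPM in wt lung at E12.5 and 191, 198, 209 and 199 at E15.5. *Acadm* had 35.0, 33.3, 31.2 and 34.4 TPM at E12.5 and 38.3, 39.4, 50.6 and 40.7 at E15.5 in the same tissue. *Acadm* was higher in the other tissues of E15.5, with 81.6, 87.0, 102.5 and 80.9 TPM in wt trachea and 88.3, 71.3, 62.9 and 84.1 in wt diaphragm, neither of which overlapped with lung. *Acadvl* had between 24.8 and 57.7 TPM in all wt libraries outside iBAT and between 1218 and 1501 in wt iBAT, 27.4 times the mean of the next highest context. Divided by its unshared bases alone, *Acadvl* came to 2381 ± 183 TPM in wt iBAT (SD, n = 5).

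*Hadha* and *Hadhb* lie head to head on chromosome 5, *Hadha* from 30323302 to 30360160 on the minus strand and *Hadhb* from 30360246 to 30389591 on the plus strand (GRCm39). The 85 bases between their outermost starts are shown because both genes begin at this stretch and yet their levels parted between contexts. Capitals mark the GC box GGGCGG, which occurs 2 times on the plus strand, and 69.4% of the bases are G or C.
Hadha-Hadhb (chr5:30360161-30360245, plus strand): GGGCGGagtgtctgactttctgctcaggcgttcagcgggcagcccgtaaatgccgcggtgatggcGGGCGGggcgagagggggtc
The ratio of *Hadhb* to *Hadha* TPM in wt libraries was lowest in lung at E15.5, with 0.280 ± 0.0204, and was 0.332 ± 0.0140 in lung at E12.5, 0.347 ± 0.0172 in trachea, 0.398 ± 0.0228 in diaphragm, 0.506 ± 0.00806 in somites at E12.5 and 0.615 ± 0.0768 in somites at E10.5 (SD, n = 4 each). In iBAT it was 0.911 ± 0.0543 (SD, n = 5). Wt libraries of lung at E12.5 and trachea overlapped in this ratio (0.322 to 0.352 and 0.322 to 0.360), and the other neighbours in the order did not. *Hadha* itself ran from a mean of 64.0 TPM in wt lung at E12.5 to 85.7 TPM in wt somites at E12.5, a ratio of 1.34, the smallest of the 10 members over the 6 contexts outside iBAT, and *Hadhb* from 21.2 to 44.1 TPM. Both rose in iBAT, to 1015 ± 97.2 and 922 ± 70.4 TPM (SD, n = 5).

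**Figure D3:**
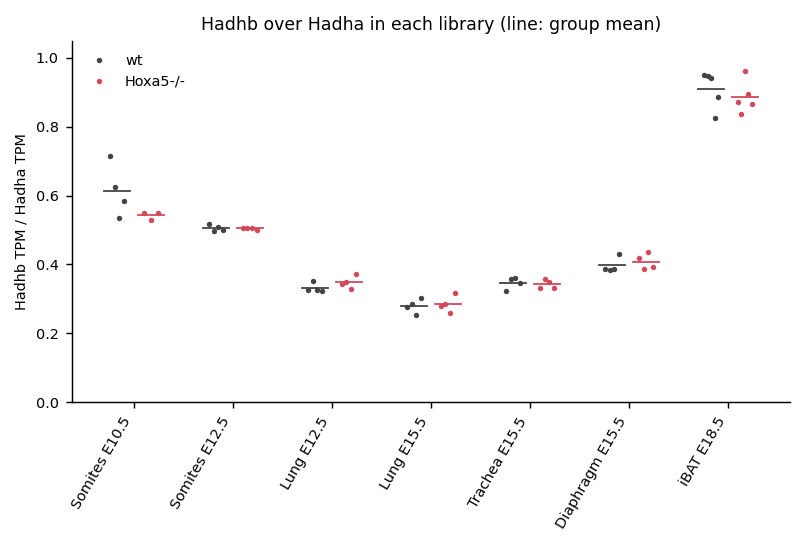
Hadhb TPM divided by Hadha TPM in each library, by context, wt in grey and Hoxa5-/- in red, with a line at the group mean. The wt means run from 0.280 in lung at E15.5 to 0.911 in iBAT, and wt and Hoxa5-/- libraries lie side by side within each context.

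*Acaa2*, which encodes a thiolase of the last step, had 97.7, 96.2, 81.9 and 90.0 TPM in E10.5 wt somites, against 155, 144, 148 and 145 TPM in those of E12.5. In wt lung it had between 108.97 and 120 TPM at E12.5 and 211, 230, 298 and 212 at E15.5. In wt iBAT it had 6160, 6624, 6479, 6718 and 5535 TPM, which is 44.0% ± 0.622 (SD, n = 5) of the summed TPM of the 10 members, against means of 23.1% to 32.5% in the other wt contexts.

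The wt groups were compared for stage and tissue with the edgeR quasi-likelihood test over all genes with a mean of at least 1 TPM in either group. Calls needed a Benjamini-Hochberg adjusted p below 0.05 together with a difference of 1.5-fold or more (0.585 on the log2 scale). Fold changes are relative to the TMM scaling of edgeR, which sets the bulk of genes level between groups.

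From E12.5 to E15.5 in wt lung, 3 of the 9 members tested rose and none fell, against 24.6% of all genes called, 15.4% higher and 9.15% lower. They were *Acadl* (log2 fold change 1.12, SE 0.0669, edgeR adjusted p = 1.34e-06), *Cpt1a* (1.04, SE 0.0841, edgeR adjusted p = 6.95e-06) and *Acaa2* (1.01, SE 0.108, edgeR adjusted p = 3.93e-05). Libraries of the 2 stages did not overlap in TPM for 8 of the 9 members, all higher at E15.5, where 27.1% of all genes tested lay wholly higher and 20.3% wholly lower, and *Hadhb* was the exception (log2 fold change 0.01, SE 0.0621). *Cpt2*, *Slc25a20*, *Acadm* and *Hadha* had an edgeR adjusted p under 0.05 with log2 fold changes of 0.18 to 0.30, under the fold minimum. *Cpt1b* had under 1 TPM at both stages and was not tested. Lung epithelium markers (10 genes) summed to 872 to 1010 TPM at E12.5 and to 4284 to 10381 at E15.5 in wt, and their part in these differences was not tested.

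In wt somites from E10.5 to E12.5, 4 of 9 members rose and none fell past the fold minimum, against 42.6% of all genes called, 24.1% higher and 18.4% lower. *Cpt1a* had the largest difference (log2 fold change 3.18, SE 0.188, edgeR adjusted p = 7.07e-09). *Acadvl* (0.66, SE 0.0841, edgeR adjusted p = 1.27e-05), *Acadl* (0.65, SE 0.0745, edgeR adjusted p = 4.86e-06) and *Acaa2* (0.62, SE 0.0922, edgeR adjusted p = 5.14e-05) also rose. *Acaa2* was not called without wt replicate 3 of E10.5 (log2 fold change 0.54) or with scaling to library totals (0.58). *Cpt2* was lower with a log2 fold change of -0.49 (edgeR adjusted p = 0.000707), under the fold minimum, while its libraries did not overlap. Of all genes tested, 24.3% lay wholly lower at E12.5. Skeletal muscle markers (12 genes) summed to 242 to 437 TPM in wt libraries of E10.5, against 3226 to 4974 TPM in those of E12.5, and their part was not tested.

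Among the tissues of E15.5, *Acadm* and *Cpt1b* were higher in wt trachea than in wt lung, 2 of 10 members, against 30.2% of all genes called, 20.1% higher and 10.1% lower. Their log2 fold changes were 1.02 for *Acadm* (SE 0.111, edgeR adjusted p = 7.64e-05) and 1.22 for *Cpt1b* (SE 0.275, edgeR adjusted p = 0.00543). In wt diaphragm against wt lung, 4 of 10 members were higher and none was called lower, against 36.4% of all genes called, 20.9% higher and 15.6% lower. These were *Cpt1b* (log2 fold change 1.58, SE 0.196, edgeR adjusted p = 0.000115), *Acadm* (1.17, SE 0.147, edgeR adjusted p = 0.000123), *Hadhb* (0.93, SE 0.0954, edgeR adjusted p = 3.4e-05) and *Acadvl* (0.73, SE 0.131, edgeR adjusted p = 0.00104). With scaling to library totals, *Acadvl* was not called (0.49) and *Cpt1a* was called lower in diaphragm (-0.64), against -0.40 (SE 0.0637, edgeR adjusted p = 0.000544) with TMM. Between wt diaphragm and wt trachea 0 members were called with edgeR and with DESeq2, against 32.5% of all genes, 14.1% higher and 18.4% lower, and 4 members had an unadjusted p under 0.05, against 55.1% of all genes. *Cpt1a* was lower in every diaphragm library than in any trachea library (log2 fold change -0.53, SE 0.0786, edgeR adjusted p = 0.000573), under the fold minimum with TMM but called with library totals (-0.76). *Cpt2* also lay wholly lower in diaphragm by TPM, as did 41.3% of all genes tested. *Hadhb* was higher in diaphragm (0.50, SE 0.0998, edgeR adjusted p = 0.00284) and was called without wt replicate 3 of diaphragm (0.60), one of the libraries with over 10000 TPM of hepatocyte markers. The 2 comparisons with lung share its libraries, as do the 2 with diaphragm and the 2 with trachea. Cardiac markers summed to 3749 to 6822 TPM in wt trachea, 937 to 1158 in wt diaphragm and 212 to 385 in wt lung, and skeletal muscle markers to 329 to 1544, 22818 to 46547 and 25.3 to 48.1 TPM in the same order. Their part was not tested.

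In wt iBAT at E18.5 against wt somites at E12.5, which hold precursors of brown fat, 9 of 10 members were higher, against 66.3% of all genes called, 31% higher and 35.3% lower. Their log2 fold changes ran from 4.78 for *Hadha* (SE 0.132, edgeR adjusted p = 8.01e-14) to 6.63 for *Acaa2* (SE 0.141, edgeR adjusted p = 8.39e-15), and *Cpt1b* stood at 5.90 (SE 0.250, edgeR adjusted p = 8.27e-12). The median over the 10 members was 5.77 and that over all genes tested -0.16. *Cpt1a* was lower in every iBAT library than in any wt somite library of E12.5 by TPM, as were 66.0% of all genes tested. Its log2 fold change with TMM was -0.22 (SE 0.113, edgeR adjusted p = 0.0854), and it was called lower with scaling to library totals (-0.87, edgeR adjusted p = 1.62e-06). Library totals moved the median of all genes from -0.16 to -0.81, a value close to that of *Cpt1a* under the same scaling. The 9 other members were called higher with both scalings (4.13 to 5.98 with library totals). Tissue and stage differ together in this comparison and cannot be told apart.

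**Figure D4:**
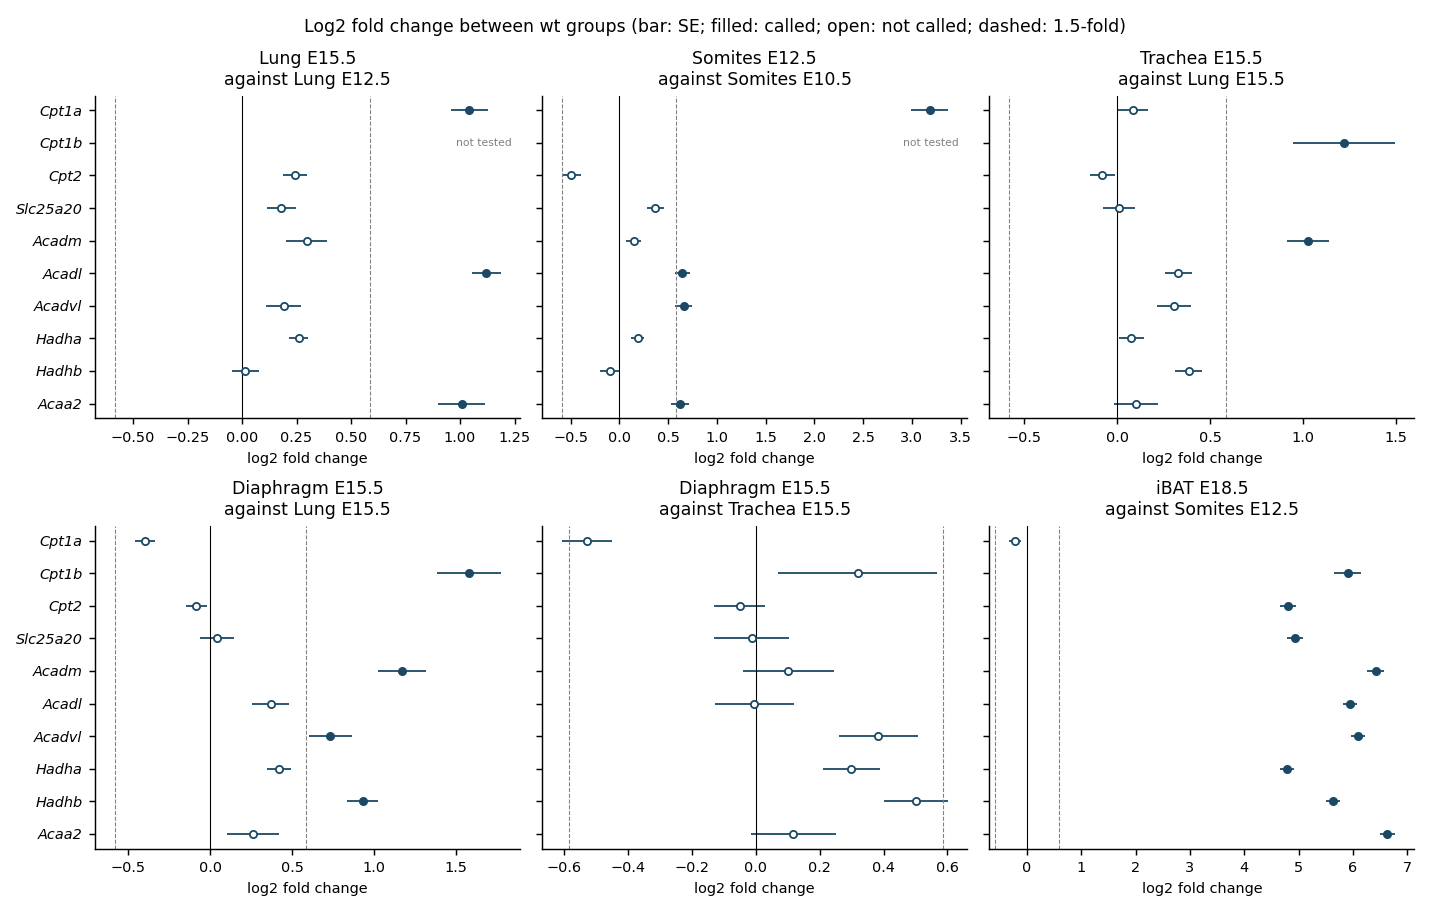
Log2 fold changes of the 10 genes between wt groups in 6 comparisons, with the SE as a bar, filled where called by edgeR (adjusted p under 0.05 and at least 1.5-fold) and dashed lines at 1.5-fold, on an x axis of its own in each panel. Cpt1a has the largest value in the comparison of somite stages (3.18) and the only gene below 0 in that of iBAT with somites, where the 9 others lie between 4.78 and 6.63.

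Between genotypes, 0 of the 10 members were called in any of the 7 contexts by edgeR or by DESeq2, nor under any of the other settings run. All genes called in the same tests were 0.0156% in trachea, 0.0798% in lung at E12.5, 0.124% in lung at E15.5, 0.594% in diaphragm, 0.0215% in somites at E10.5, 0.00529% in somites at E12.5 and 0.00657% in iBAT, so that a count of 0 among 10 is near what all genes gave. *Cpt1b* was under 1 TPM in both genotypes of lung and of somites at both stages and was not tested there. An unadjusted p under 0.05 was found for 4 members in trachea, for 1 in lung at E12.5 (*Cpt2*), for 1 in lung at E15.5 (*Slc25a20*) and for 0 in the 4 other contexts. Of all genes tested, 6.7%, 8.01% and 6.32% passed the same limit in these 3 contexts, so that the single members in lung are near the share of all genes. In the 4 other contexts the share of all genes was 13% in diaphragm, 12.7% in somites at E10.5, 3.24% in somites at E12.5 and 2.47% in iBAT.

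In trachea all 10 members had a log2 fold change below 0 in *Hoxa5*-/- libraries, with a median of -0.19 against 0.00203 over all genes, of which 49.4% lay below 0. The 4 with an unadjusted p under 0.05 were *Acadl*, *Cpt2*, *Acaa2* and *Cpt1a*. *Acadl* had 258, 288, 236 and 242 TPM in wt and 194, 203, 209 and 167 TPM in *Hoxa5*-/- libraries, without overlap (log2 fold change -0.41, SE 0.0916, edgeR adjusted p = 0.556, DESeq2 adjusted p = 0.0198, in both under the fold minimum). *Cpt2* had 57.1, 55.1, 55.9 and 49.4 TPM in wt and 46.7, 44.1, 48.0 and 41.5 TPM in *Hoxa5*-/- libraries, again without overlap (log2 fold change -0.28, SE 0.0758, edgeR adjusted p = 0.653). *Acaa2* had at least 243 TPM in wt and at most 242 TPM in *Hoxa5*-/- trachea. The summed TPM of the 10 genes was 836 to 961 in wt and 677 to 783 in *Hoxa5*-/- trachea. Of all genes tested in trachea, 1.66% lay wholly lower in *Hoxa5*-/- libraries. The 12 cardiac markers moved the same way, with 3749 to 6822 TPM in wt and 1877 to 3715 TPM in *Hoxa5*-/- trachea and none of the 12 at 0 in every library of a group, and *Hoxa5*-/- replicate 3 held 5110 TPM of skeletal muscle markers against 141 to 1544 in the other 7 trachea libraries. Their part in the values of the members was not tested.

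In diaphragm all 10 members also lay below 0, from -0.05 for *Cpt2* (SE 0.0867) to -0.53 for *Cpt1b* (SE 0.256, edgeR adjusted p = 0.430), and the genotypes overlapped in TPM for each of them. Their median was -0.13 against 0.00485 over all genes, of which 48.8% lay below 0. *Acaa2* had 275, 189, 222 and 234 TPM in wt and 183, 137, 184 and 227 TPM in *Hoxa5*-/- diaphragm, the second largest difference there (log2 fold change -0.34, SE 0.184, edgeR adjusted p = 0.481). Skeletal muscle markers ran from 22818 to 46547 TPM in wt and from 18446 to 33076 TPM in *Hoxa5*-/- diaphragm, and hepatocyte markers over 10000 TPM occurred in 1 wt and 2 *Hoxa5*-/- libraries. Their part was not tested.

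In iBAT, where the members were most abundant, log2 fold changes lay between -0.07 for *Acadvl* (SE 0.0958) and 0.12 for *Cpt1a* (SE 0.0922), and the lowest unadjusted p was 0.205. The summed TPM was 14336 ± 1074 in wt and 14063 ± 465 in *Hoxa5*-/- libraries (SD, n = 5). *Acadvl* had 1218, 1331, 1410, 1501 and 1345 TPM in wt and 1417, 1185, 1304, 1200 and 1175 TPM in *Hoxa5*-/- iBAT, and the groups overlapped. Brown fat markers overlapped as well, with 14873 to 21219 TPM in wt and 17349 to 20775 TPM in *Hoxa5*-/- libraries.

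In lung, 7 of 9 members lay below 0 at E12.5 (median -0.04) and 9 of 9 at E15.5 (median -0.04), with log2 fold changes from -0.20 to 0.12 at E12.5 and down to -0.16 (*Slc25a20*) at E15.5. Of all genes tested, 49.2% lay below 0 at E12.5 and 52.1% at E15.5. *Slc25a20* was higher in every *Hoxa5*-/- library than in any wt library at E12.5 (19.3 to 20.8 TPM against at most 19.02 TPM), where 2.42% of all genes lay wholly higher, and its log2 fold change was 0.12 (SE 0.0733, edgeR adjusted p = 0.700). *Hoxa5*-/- replicate 4 of lung at E15.5 had the lowest TPM of its group for all members but *Cpt1b*, for example 22.5 TPM of *Cpt1a* against 31.95 to 37.12 and 140 TPM of *Acaa2* against 189 to 283. The same library had the lowest total count of its group, 20692978 reads against 35475543 to 53939635, and per the sequencing statistics of the study a smaller share of its reads was mapped and assigned to genes. Its cardiac markers summed to 657 TPM against 209 to 406 in the other 3, and its lung epithelium markers to 2279 TPM against 3214 to 10512. Without this library, 0 members were called, as with it. Erythroid markers (10 genes) summed to 140072 TPM in *Hoxa5*-/- replicate 1 of lung at E12.5 against 19116 to 36567 TPM in the 7 other libraries of that stage, and that library had the lowest TPM of the 8 for 7 members (not *Cpt1b*, *Slc25a20* or *Acadl*). The part of these differences between libraries in the values of the members was not tested. In somites, log2 fold changes lay between -0.20 (*Hadhb*) and 0.39 (*Cpt1a*, SE 0.340) at E10.5 and between -0.07 (*Cpt1a*) and 0.10 (*Cpt2*) at E12.5. *Cpt1a* at E10.5 had 5.54, 3.71 and 1.66 TPM in the 3 *Hoxa5*-/- libraries, which spanned the wt range.

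**Figure D5:**
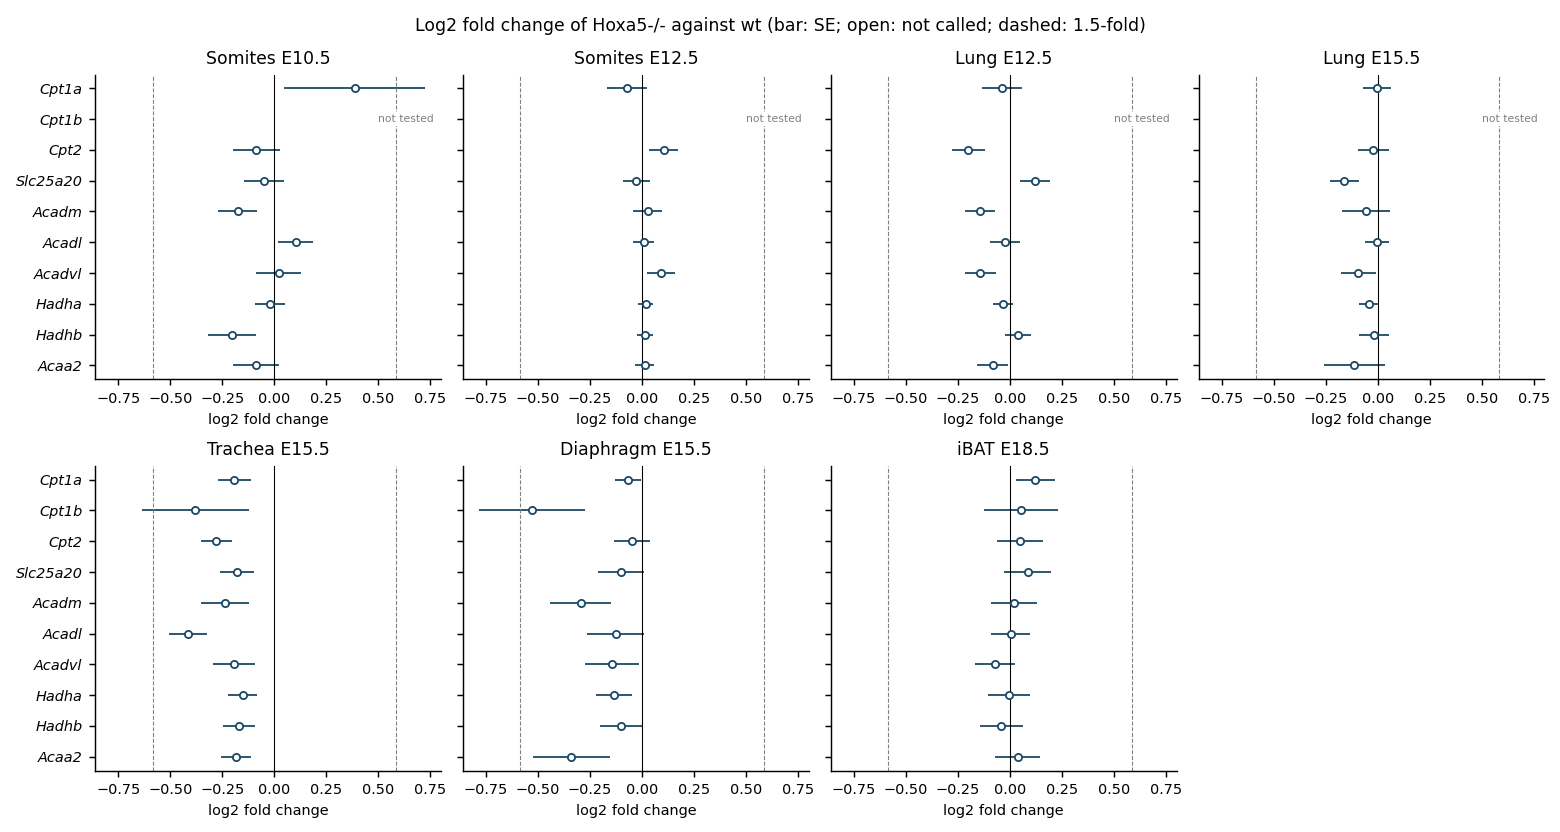
Log2 fold changes of Hoxa5-/- against wt for the 10 genes in the 7 contexts, with the SE as a bar and dashed lines at 1.5-fold, where open points were not called by edgeR. All points lie between -0.53 and 0.39, and all 10 lie below 0 in trachea and in diaphragm.

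Whether the genotype difference itself changed between contexts was tested as an interaction at an edgeR adjusted p under 0.05, and 0 members passed in any of the 5 tests. All genes passed in 0.0267% for lung E15.5 against E12.5, 0.0147% for somites E12.5 against E10.5, 0.00502% for trachea against lung, 0.730% for diaphragm against lung and 0.439% for diaphragm against trachea at E15.5. At an unadjusted p under 0.05 these were 1, 0, 2, 0 and 0 members, against 5.25%, 14.3%, 5.04%, 8.46% and 9.07% of all genes, and DESeq2 also found 0 in each. The lowest unadjusted p among members was that of *Acadl* in trachea against lung (log2 difference of the genotype effects -0.42, SE 0.111, edgeR adjusted p = 0.476). Without wt replicate 3 of somites at E10.5, *Hadhb* passed in the interaction of somite stages (0.30), and 2580 genes passed in place of 3.

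The other genes around the pathway were followed in 6 lists of 55 genes in all: 13 further matrix enzymes, 14 genes of fatty acid uptake and activation, 3 of malonyl-CoA, 11 of peroxisomal oxidation, 5 of ketone bodies and 9 regulators. None of the genes tested (50 to 54 per context) was called between genotypes by edgeR in any context, where at most 0.594% of all genes were called. In trachea their median log2 fold change was -0.12, and in diaphragm -0.08. Among wt groups, 42 of 54 were called higher and 5 lower in iBAT against somites at E12.5. The same test called 31% of all genes higher and 35.3% lower. The list genes called higher included 13 of 13 matrix enzymes, 9 of 10 peroxisomal genes and 6 of 9 regulators. The largest differences that did not overlap were those of *Fabp4*, a fatty acid carrier of adipocytes (log2 fold change 12.33, SE 0.204, edgeR adjusted p = 1.28e-15), *Pparg*, a nuclear receptor that directs fat cell formation (7.88, SE 0.139, edgeR adjusted p = 1.96e-15), and *Ppara*, a nuclear receptor known for activating fatty acid oxidation genes (7.73, SE 0.264, edgeR adjusted p = 7.26e-13). *Pparg* had 279 to 396 TPM in wt iBAT and 2.83 to 3.60 in wt somites at E12.5. *Bdh1*, a dehydrogenase of ketone bodies, went against this direction (-5.94, SE 0.194, edgeR adjusted p = 4.59e-13) and was named after its values were seen.

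In the comparison of somite stages, 21 of 54 list genes were called higher at E12.5 and 5 lower, with 7 of 9 regulators higher. Of all genes tested, 24.1% were called higher and 18.4% lower. *Pparg* (4.82, SE 0.314, edgeR adjusted p = 1.76e-08) and *Fabp4* (4.01, SE 0.262, edgeR adjusted p = 1.85e-08) led. Of the 13 further matrix enzymes, 1 rose and none fell. In lung from E12.5 to E15.5, 8 of 52 list genes rose and 4 fell, led by *Pparg* (2.77, SE 0.370, edgeR adjusted p = 0.000167) and the fatty acid transporter *Cd36* (2.30, SE 0.339, edgeR adjusted p = 0.000312). All genes tested gave 15.4% higher and 9.15% lower, so the list counts are near the share of all genes. Again 1 of 13 matrix enzymes rose and none fell.

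Between tissues at E15.5, 13 of 54 list genes were higher and 4 lower in wt trachea than in wt lung, and 22 of 54 were higher and 2 lower in wt diaphragm than in wt lung. All genes tested gave 20.1% higher and 10.1% lower in the first comparison, and 20.9% and 15.6% in the second. *Fabp4* led both, with 21.3 to 33.3 TPM in trachea, 38.8 to 54.9 in diaphragm and 0.440 to 1.70 in lung (log2 fold changes 4.92 and 6.03, edgeR adjusted p = 1.04e-05 and 9.07e-07), followed by *Fabp3*, the fatty acid carrier of heart and muscle (4.81 and 5.54, edgeR adjusted p = 1.09e-05 and 6.89e-06). *Acsl6*, an acyl-CoA synthetase, came next in trachea (2.92, edgeR adjusted p = 2.51e-05) and the peroxisomal oxidase *Acox2* next in diaphragm (4.68, SE 0.732, edgeR adjusted p = 0.000482). *Acox2* had 1.79 to 10.6 TPM in wt diaphragm and 0.0699 to 0.290 TPM in wt lung. Hepatocyte markers summed to 1846 to 10409 TPM in wt diaphragm and to 5.19 to 51.1 TPM in wt lung. Their part was not tested. Against trachea, diaphragm had 13 of 55 list genes higher and 4 lower, where all genes gave 14.1% higher and 18.4% lower. The list genes were led by the coactivator *Ppargc1b* (2.54, SE 0.217, edgeR adjusted p = 2.85e-05), *Cd36* (1.69, SE 0.289, edgeR adjusted p = 0.00125) and the peroxisomal transporter *Abcd2* (1.44, SE 0.211, edgeR adjusted p = 0.00053). Matrix enzymes differed in 2, 2 and 1 of 13 in these 3 comparisons, against 30.2%, 36.4% and 32.5% of all genes.

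Across the 7 wt context means of log2(TPM + 1), the 36 pairs of members without *Cpt1a* had Pearson's r from 0.840 to 0.997 with a median of 0.964, and the 9 pairs with *Cpt1a* had r from -0.374 to 0.086. Without iBAT, over 6 means, the 36 pairs ran from -0.643 to 0.986 with a median of 0.403, so that the likeness of the 9 members rests on iBAT. The means come from both sequencing centres and both read types, and r is given as a description. The 5 other protein-coding genes most like the mean z-score of the members over these 7 means were *Acad12* (r = 0.998), *Hint2* (0.998), *Ech1* (0.998), *Irf4* (0.996) and *Aldh6a1* (0.994), of 15741 genes ranked. *Ech1*, a dienoyl-CoA isomerase, went from 42.6 TPM in wt somites at E10.5 to 1108 TPM in wt iBAT. *Irf4* had no more than 1.88 TPM in any wt context. With a pseudocount of 0.1 in place of 1, 3 of these 5 stayed among the first 5.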

How the data were processed

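PolyA-selected RNA of 57 libraries was sequenced. Per the labels and the submitters' processing notes, the authors used Trim Galore 0.6.5 for trimming, STAR 2.7.9a for alignment to the GRCm39 build and featureCounts 2.0.3 for counts per gene. The deposited count tables hold whole reads per gene without normalization. The authors turned those counts and exon lengths into the deposited TPM. Strand and overlap settings of the counting are not given in the sources used here. Samples were grouped by tissue, stage and genotype from their labels. The study calls its replicates biological, and which embryos share a litter is not given.

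Counts were tested with the quasi-likelihood F test of edgeR 4.0.16 (R 4.3.3, TMM, Benjamini-Hochberg adjustment over all genes tested), using the libraries of the groups compared and leaving out genes below 1 TPM on average in both groups. Calls needed an adjusted p below 0.05 with a 1.5-fold difference, and interactions the adjusted p alone. Alternatives were DESeq2 1.42.0, its size factors in edgeR, a minimum of 10 counts, no filter, no fold minimum, 1 fit per table, blocks by replicate number or (iBAT) by the first number in the library name, and each library left out in turn. Scaling to library totals, leaving out diaphragm libraries over 10000 TPM of hepatocyte markers and *Cpt1b* per unshared base were added after seeing the data. The test was tried on simulated data. Shares, ratios and correlations carry no test.

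Replicate numbers paired the libraries (every pair's deviations correlated above 0.1, from the data alone) in iBAT (0.105 to 0.279) and in wt trachea against wt lung at E15.5 (0.142 to 0.487). Depth ran from 18369905 to 72991481 counts. Promoter letters came from RefSeq (GRCm38.p6, 8 of 10 members), and the *Hadha*-*Hadhb* stretch from GRCm39. The text names the members in all contexts, list genes called between genotypes, up to 3 called list genes of largest fold change without overlap per wt comparison, and the 5 genes most like the members. A list gene that this rule names is not reported here. Members and lists were chosen with earlier results of these data known. Python 3.11.15, numpy 2.4.6, pandas 2.3.3 and matplotlib 3.10.9 made summaries and figures.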

Additional observations from a re-analysis of the deposited data

Results flagged for a closer look

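Of 143 groups of 4 or 5 libraries examined (the TPM of each member and their sum), 3 held a library whose gap to its nearest neighbour was over Dixon's 95% critical value, where chance alone flags about 1 group in 20. *Cpt1a* in *Hoxa5*-/- replicate 4 of somites at E12.5 was 26.3 TPM against at most 23.4 in the 3 others. *Acadl* in *Hoxa5*-/- replicate 3 of somites at E12.5 was 89.5 TPM against 96.2 to 97.4 in the 3 others. *Acadvl* in *Hoxa5*-/- replicate 4 of lung at E15.5 was 23.1 TPM against 34.8 to 36.8 in the 3 others, and this library was also lowest for the other members except *Cpt1b*.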

How the results depend on the processing

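The count of 0 members called between genotypes held under each of the 15 to 19 alternatives run per context, while the number of all genes called ranged from 0 to 52 in trachea (3 as reported), 4 to 81 in lung at E12.5 (14), 5 to 104 in lung at E15.5 (22), 30 to 406 in diaphragm (107), 0 to 386 in somites at E10.5 (4, with 386 without wt replicate 3), 1 to 10 in somites at E12.5 (1) and 1 to 6 in iBAT (1). An adjusted p under 0.05 without a call was found for *Acadl* in trachea with DESeq2 (0.0198) and for *Hadhb* in somites at E10.5 without wt replicate 3 (0.0450). Without the fold minimum, members called between wt groups numbered 7 in place of 3 for lung stages, 7 in place of 4 for somite stages, 5 in place of 2 for trachea against lung, 7 in place of 4 for diaphragm against lung and 4 in place of 0 for diaphragm against trachea, while all genes called rose to 9107, 12518, 9584, 11138 and 9669. In the last comparison, 1 was called with library totals and 1 when diaphragm libraries over 10000 TPM of hepatocyte markers were left out, and leaving out single libraries gave 0 to 1, the 1 without wt replicate 3 of diaphragm. In the interaction of somite stages, leaving out single libraries gave 0 to 1 members. With the replicate number as a block, 0 members were called between genotypes in every context and 2 in wt trachea against lung, as without it, and the block changed the count of members in no other comparison by over 1.5 times.

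Library totals in place of TMM moved the median log2 fold change of all genes from -0.01 to -0.25 in diaphragm against lung, from -0.04 to -0.26 in diaphragm against trachea and from -0.16 to -0.81 in iBAT against somites, and the split of genes called higher and lower from 3959 and 2956 to 3190 and 4690, from 2791 and 3621 to 2074 and 5026, and from 6002 and 6839 to 4102 and 10160. For the genotypes of lung at E15.5 it went from 4 and 18 to 1 and 14. The cause was not tested. *Cpt1b* reads limit what can be said outside iBAT: with the filter at 1 TPM it was not tested between genotypes or stages of lung or somites. With other filters it was tested between wt somite stages and was called lower at E12.5 than at E10.5 with a minimum of 10 counts (edgeR adjusted p = 0.0448) but not without a filter (0.0797).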
